A study of Mus musculus with 2 samples.

Results

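The nuclear genes of oxidative phosphorylation were taken as all genes whose symbols begin with Nduf followed by a, b, c, s or v, with Uqcr, with Cox4 to Cox8 or with Atp5, together with the succinate dehydrogenase genes Sdha, Sdhb, Sdhc and Sdhd. A gene was a member when it reached at least 10 CPM (UMIs of the gene scaled to the library's total) over all kept cells of 1 library. Of 31053 genes in the feature tables, 93 had such a symbol and 83 were members: 36 subunits of complex I, 4 of complex II, 8 of complex III, 12 of complex IV, 15 of complex V and 8 complex I assembly factors. The floor was reached in both libraries by 80 members and in the NRS library alone by 3, Ndufaf1, Ndufaf5 and Ndufaf6. Ndufaf1 lay just inside it, at 11.1 CPM in NRS and 7.42 in aCXCR2, and Cox7a1 just outside, at 9.84 and 7.58 CPM.

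All mice were C57BL/6 and had zymosan, a yeast cell wall preparation that draws phagocytes, injected into the eye. Both groups also received antisera: 1 library is labelled aCXCR2, for the chemokine receptor of that name, and 1 is labelled NRS, which the labels do not spell out. Cells of the vitreous and of a wash of the retinas went through beads for Ly6G, a surface protein of mouse neutrophils, and into droplets for 3' sequencing. The labels do not give the number, age or sex of the mice, the doses or the time after injection. Each group is a single library, so nothing here was tested against replicates, and every interval (95%) covers counting error only.

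Oxidative phosphorylation runs in the inner mitochondrial membrane. Complexes I and II pass electrons from NADH and succinate to ubiquinone, complex III passes them to cytochrome c and complex IV to oxygen, and complex V uses the resulting proton gradient to make ATP. Most subunits are encoded in the nucleus and a small core in mitochondrial DNA. Neutrophils are known for few mitochondria and a reliance on glycolysis, and rod photoreceptors for an inner segment packed with mitochondria.

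After filtering, 5655 NRS and 4826 aCXCR2 cells remained, with 47553685 and 81812329 unique molecular identifiers (UMIs) and medians of 4759 and 10383.5 UMIs per cell. The 21 clusters included 6 neutrophil-like, 4 macrophage-like (markers of macrophages and monocytes) and 3 photoreceptor-like ones. Despite the Ly6G beads, the neutrophil-like class held 23.8% of cells in NRS against 50.8% in aCXCR2, the macrophage-like class 10.7% against 36.7% and the photoreceptor-like class 11.7% against 4.37%. All 12 neutrophil markers reached 10 CPM in the neutrophil-like class of both libraries, and all 13 macrophage and monocyte markers in the macrophage-like class. Of 14 photoreceptor markers, 14 in NRS and 13 in aCXCR2 did so in the photoreceptor-like class, the exception being the cone opsin Opn1sw with 0 UMIs. The classes were named from these same lists, so this is not an independent check of the names. Of the neutrophil markers, 10 in NRS and 11 in aCXCR2 also reached 10 CPM in the photoreceptor-like class. There 4 and 7 of the macrophage and monocyte markers did so. Clusters 0 and 6 scored highest for neutrophils without meeting the naming rule, and cluster 9 mixed rod and neutrophil markers. Cluster 4, led by hemoglobin genes together with Gsto1, Psca and Krt13, met the rule as erythroid-like, a name not used here. These are given by number. Counted with clusters 0 and 6, the neutrophil-like class held 3012 of 5655 NRS cells and 2572 of 4826 aCXCR2 cells. The difference in neutrophil-like share between the libraries therefore depends on leaving clusters 0 and 6 out.

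The libraries shared 53 barcode sequences among kept cells. In NRS these 53 had a median of 73240 UMIs and held 7.89% of all UMIs, and in aCXCR2 a median of 778 and 0.536%. Of the 53 in NRS, 36 were photoreceptor-like and held 33.5% of that class's UMIs. Values for all cells and for photoreceptor-like cells therefore rest in part on them. The member sums and counts, the photoreceptor-like to neutrophil-like contrast, the pathway lists and the leading genes between the libraries are also given without these barcodes, and other values of these cells include them. In neutrophil-like and macrophage-like cells they held at most 0.604% of UMIs.

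The promoters of the members are shown because known regulators of these genes, NRF1 and the ETS factor GABP, bind short motifs near the start site. Promoters in RefSeq (build GRCm38.p6) were matched for 70 of 83 members, with 75 starts, and the 250 bases before each start were searched on both strands. The NRF1 motif (GCGC, any base, TGCGC) was found in 15 of 75 (20%) against 3.74% of all 32851 promoters, and the ETS motif CCGGAAG in 14 (18.7%) against 6.91%. Either was found in 26 (34.7%) against 10.1%, and both in 3. The YY1 motif AANATGGCG was found in 3 (4%) against 1.12%, and CTAATCC, bound by the photoreceptor factor CRX, in 0 against 1.78%. A match of letters is a description and not a shown binding site. The runs that follow are a complex II and a complex IV subunit with both motifs, the complex V subunit with the highest level, and 2 assembly factors with high levels in photoreceptor-like cells, Ndufaf4 with an NRF1 match and Ndufaf5 with none of the 4 motifs. Each run is the 250 bases before the start, read 5' to 3' on the gene's strand, with NRF1 and ETS matches in capitals.
Sdhd, chr9:50603850-50604099, minus strand: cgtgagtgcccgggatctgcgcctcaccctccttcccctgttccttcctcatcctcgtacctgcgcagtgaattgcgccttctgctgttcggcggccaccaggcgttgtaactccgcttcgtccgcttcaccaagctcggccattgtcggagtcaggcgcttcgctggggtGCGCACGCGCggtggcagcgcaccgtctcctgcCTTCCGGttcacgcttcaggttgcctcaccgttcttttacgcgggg
Cox6a1, chr5:115348959-115349208, minus strand: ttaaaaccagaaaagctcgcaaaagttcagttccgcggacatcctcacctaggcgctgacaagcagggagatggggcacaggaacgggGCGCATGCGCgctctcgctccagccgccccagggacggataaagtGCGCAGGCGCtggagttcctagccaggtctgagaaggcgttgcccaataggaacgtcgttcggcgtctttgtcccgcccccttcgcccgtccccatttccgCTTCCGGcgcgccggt
Atp5e, chr2:174464102-174464351, minus strand: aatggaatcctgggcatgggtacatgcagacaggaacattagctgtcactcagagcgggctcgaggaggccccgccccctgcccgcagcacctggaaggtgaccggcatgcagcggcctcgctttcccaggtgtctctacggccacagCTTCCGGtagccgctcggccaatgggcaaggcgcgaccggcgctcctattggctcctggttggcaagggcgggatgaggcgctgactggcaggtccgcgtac
Ndufaf4, chr4:24897833-24898082, plus strand: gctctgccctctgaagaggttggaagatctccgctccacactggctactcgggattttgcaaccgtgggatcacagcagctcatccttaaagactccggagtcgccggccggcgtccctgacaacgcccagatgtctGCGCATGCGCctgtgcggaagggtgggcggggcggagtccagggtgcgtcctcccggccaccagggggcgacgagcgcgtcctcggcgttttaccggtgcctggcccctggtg
Ndufaf5, chr2:140170396-140170645, plus strand: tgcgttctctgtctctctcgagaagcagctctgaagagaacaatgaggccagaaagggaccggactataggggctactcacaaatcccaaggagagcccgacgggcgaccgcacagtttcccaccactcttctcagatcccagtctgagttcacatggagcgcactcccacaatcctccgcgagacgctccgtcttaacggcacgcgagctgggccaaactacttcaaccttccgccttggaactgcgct

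The summed level of the 83 genes differed more between the 3 main classes, as named, than between the libraries. Photoreceptor-like cells had the highest sum of the 3 main classes, at 29306 CPM in NRS (29196 to 29416) and 26573 in aCXCR2 (26330 to 26818). Macrophage-like cells had 19208 (19140 to 19277) and 19039 CPM (19002 to 19075), and neutrophil-like cells 12382 (12295 to 12470) and 10317 CPM (10275 to 10360). The intervals of the 3 classes did not overlap in either library. With the unnamed clusters that scored highest for neutrophils counted in, the neutrophil-like sum was 18270 CPM in NRS and 10758 in aCXCR2. The order was then the same, but the NRS sum lay close to that of macrophage-like cells. Without the shared barcodes the photoreceptor-like sums were 28947 and 26571 CPM.

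The same order was seen cell by cell. The median share of a cell's UMIs that came from the 83 genes was 2.67% in NRS and 2.63% in aCXCR2 photoreceptor-like cells, 1.94% and 1.90% in macrophage-like cells, and 1.095% and 0.869% in neutrophil-like cells. Depth differed between classes, with medians of 23392 and 30049 UMIs per macrophage-like cell against 4178 and 7746 per neutrophil-like cell. When every cell was thinned to 1000 UMIs, the sums were 27757 and 27074 CPM in photoreceptor-like, 19490 and 18761 in macrophage-like and 11759 and 10224 in neutrophil-like cells, in the same order. Among smaller classes, dendritic-like cells (17 NRS and 24 aCXCR2) had 20126 and 21319 CPM, and lens-like cells (119 and 10) had 16276 and 14688 CPM. Markers of other cells were present in both. In dendritic-like cells the 7 dendritic markers summed to 1067 and 995 CPM, beside 4076 and 3622 of neutrophil, 264 and 795 of T or NK and 119.8 and 303 of B cell markers. In lens-like cells the 8 lens markers summed to 7749 and 3014 CPM, beside 16408 and 66128 of neutrophil markers. The part of other cells in the member levels of these classes was not tested.

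**Figure D1:**
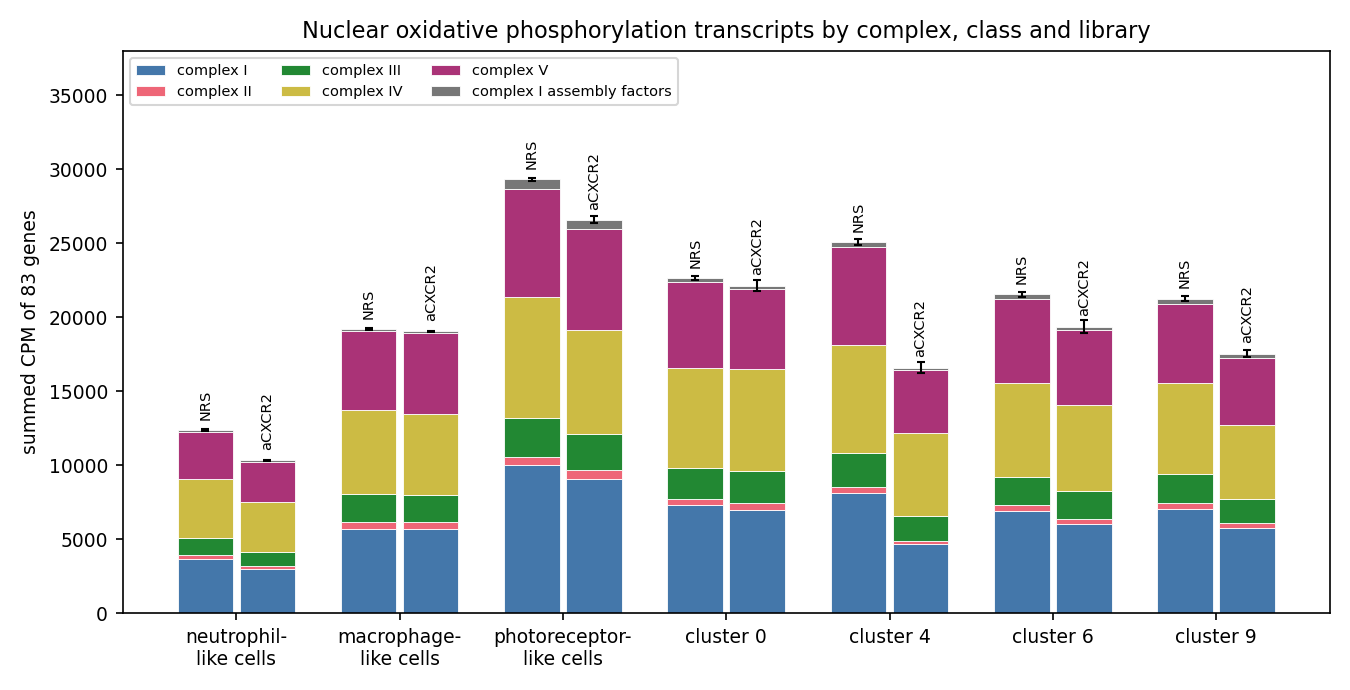
Summed CPM of the 83 genes, stacked by respiratory complex, in 3 cell classes and 4 clusters given by number, with the NRS library on the left and aCXCR2 on the right of each pair; error bars are 95% counting intervals of the sum. Photoreceptor-like cells stand at 29306 and 26573 CPM and neutrophil-like cells at 12382 and 10317.

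The shares of the complexes among member UMIs varied within narrow ranges. Complex I gave 29.7% in NRS and 28.9% in aCXCR2 neutrophil-like cells, 29.6% and 29.8% in macrophage-like cells, and for photoreceptor-like cells 34.2% in both. Complex IV gave 32.0% and 32.6%, 29.4% and 29.0%, and 27.8% and 26.4% in the same order. Complex V lay between 24.8% and 28.4%, complex III between 9.13% and 9.90%, and complex II between 1.73% and 2.40%. Of the 3 classes, photoreceptor-like cells had the highest complex I share and neutrophil-like cells the highest complex IV share, in both libraries.

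Single clusters spanned a wider range than the classes. Among the 14 clusters that had 50 or more cells in both libraries, the rod cluster 5, with Sag, Gngt1 and Gnat1 among its leading genes, was highest at 29595 CPM in NRS and 32437 in aCXCR2. The neutrophil-like cluster 7, led by Ccl4, G0s2 and Cxcl2, was lowest at 9579 and 6670 CPM. Of 83 members, 45 in NRS and 54 in aCXCR2 had their highest level in cluster 5, and a further 10 in each library in the photoreceptor-like cluster 15. The lowest level was in cluster 7 for 46 and 57 members and in the neutrophil-like cluster 12, led by Hdc, Cxcr2 and Il1r2, for 21 and 20. Cluster 4 held the highest level of 18 members in NRS and of 0 in aCXCR2, and cluster 0 that of 5 and 12. These counts were made for members only, so whether they differ from those of other genes is not known. Of all genes, 61.1% in NRS and 71.0% in aCXCR2 were at least 1.5-fold higher in photoreceptor-like than in neutrophil-like cells.

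The unnamed clusters that scored highest for neutrophils did not share the low sums of the neutrophil-like class. Cluster 0 (1037 NRS and 66 aCXCR2 cells), led by Itpr2, Gadd45b, Ccrl2 and Gdf15, had 22654 and 22134 CPM. Cluster 6 (628 and 53 cells), led by Ccl3, Samsn1 and Wfdc21, had 21544 and 19365 CPM. Clusters 0 and 6 also exceeded the 3 main classes in the ratio of nuclear member UMIs to UMIs of the 13 mitochondrially encoded subunits. That ratio was 1.26 and 1.498 in cluster 0 and 1.16 and 0.921 in cluster 6, with 1.18 and 0.952 in cluster 4. It was 0.594 and 0.567 in neutrophil-like cells, 0.425 and 0.470 in macrophage-like cells, and for photoreceptor-like cells 0.446 and 0.614. Lens-like cells had 0.710 and 1.02, the latter from 10 cells and above clusters 4 and 6 in aCXCR2. In aCXCR2 the photoreceptor-like cluster 15 also had sums near each other, at 19665 CPM nuclear and 21735 mitochondrially encoded. The limit of 10% mitochondrial UMIs per cell acts on the mitochondrially encoded genes directly, and its part in these ratios was not tested.

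**Figure D2:**
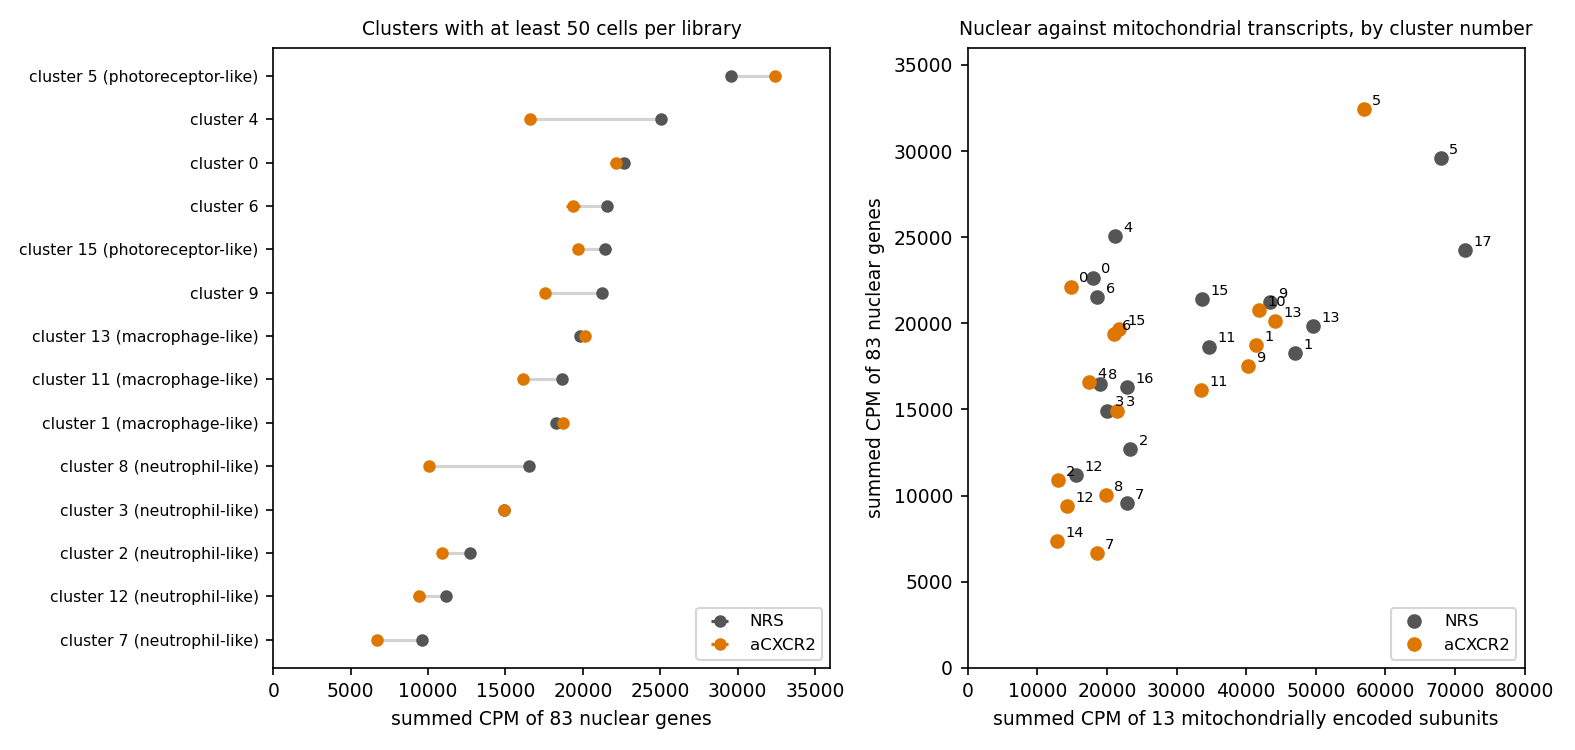
Left, summed CPM of the 83 nuclear genes in each cluster with 50 or more cells in both libraries (bars are 95% counting intervals). Right, the same sum against that of the 13 mitochondrially encoded subunits for each cluster with 50 or more cells in the library plotted (NRS grey, aCXCR2 orange), labelled by cluster number; clusters 0, 4 and 6 of NRS combine nuclear sums of 21544 to 25070 CPM with mitochondrially encoded sums of 17992 to 21166.

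Across the 16 clusters that held 50 or more cells in a given library, the nuclear sum correlated with the mitochondrially encoded sum at r = 0.59 (Spearman 0.34) in NRS and 0.72 (Spearman 0.66) in aCXCR2. With cytosolic ribosomal protein genes r was 0.56 (Spearman 0.56) and 0.68 (Spearman 0.77), and with glycolysis genes 0.12 (Spearman 0.14) and 0.27 (Spearman 0.44). These are descriptions over clusters that share a library, its depth and its free RNA.

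Complex I takes electrons from NADH. A 3' UMI counts each captured transcript once whatever its length, so levels of different genes can be set side by side, apart from how well each 3' end is captured. The 3 complex I subunits with the highest mean level were the accessory subunits Ndufa7 (403 CPM in NRS and 277 in aCXCR2 over all cells), Ndufa13 (351 and 294) and Ndufa2 (348 and 278). The core subunit Ndufv1, which holds the flavin, was at 94.3 and 47.7 CPM over all cells. It stood at 229 and 256 CPM in photoreceptor-like, 48.3 and 50.2 in macrophage-like and 31.4 and 21.7 in neutrophil-like cells. Ndufa5, an accessory subunit, had the widest range of the 36 over the 3 main classes in both libraries, at 308 and 295 CPM in photoreceptor-like, 116 and 113 in macrophage-like and 20.6 and 21.2 in neutrophil-like cells.

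Complex II, succinate dehydrogenase, is also an enzyme of the citric acid cycle, and of the 3 main classes 2 of its 4 members were highest in macrophage-like cells. The iron-sulphur subunit Sdhb had 156 and 159 CPM there, against 104 and 116 in photoreceptor-like and 83.2 and 79.6 in neutrophil-like cells. The membrane anchor Sdhd had 111 and 122 CPM in macrophage-like, 68.7 and 108 in photoreceptor-like and 81.8 and 66.7 in neutrophil-like cells. The flavoprotein Sdha was instead highest of the 3 in photoreceptor-like cells, at 228 and 257 CPM, with 106 and 95.9 in macrophage-like and 80.2 and 54.8 in neutrophil-like cells. Sdhc, the other anchor, had the same order, with 105 and 118, 75.6 and 79.7, and 35.2 and 24.4 CPM.

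Complex III was led by the small subunits Uqcrq (435 and 312 CPM over all cells), Uqcrh (386 and 360) and Uqcrb (314 and 252). Uqcrb had 476 and 449 CPM in photoreceptor-like, 320 and 305 in macrophage-like and 111 and 103 in neutrophil-like cells. Uqcrfs1, the Rieske iron-sulphur protein, had 134 and 143, 99.7 and 102, and 57.4 and 46.2 CPM in the same order. Uqcrq was more even over these classes, at 560 and 494, 329 and 333, and 311 and 230 CPM in the same order.

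Complex IV, cytochrome c oxidase, held the highest member of all, Cox8a, at 1007 and 834 CPM over all cells, followed by Cox4i1 at 832 and 695 and Cox6c at 672 and 535. Cox8a also had the narrowest range of all members over the 3 main classes, at 945 and 763 CPM in neutrophil-like, 889 and 856 in macrophage-like and 926 and 854 in photoreceptor-like cells. Cox4i1, whose product is a regulatory subunit, had 514 and 430, 872 and 796, and 987 and 858 CPM in the same order. Ndufa4, named for complex I but now placed in complex IV, differed widely. It had 1692 CPM in NRS and 1258 in aCXCR2 photoreceptor-like cells, against 182 and 171 in macrophage-like and 136 and 99.97 in neutrophil-like cells.

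Complex V, ATP synthase, was led by Atp5e (720 and 661 CPM over all cells), Atp5l (590 and 561) and Atp5h (465 and 409). Atp5e, the epsilon subunit, was lower in photoreceptor-like than in neutrophil-like cells, at 558 and 413 against 592 and 463 CPM. Atp5b, the catalytic beta subunit, was 3.93-fold and 5.75-fold higher in photoreceptor-like than in neutrophil-like cells, at 1003 and 1014 against 255 and 176 CPM. Subunits of the same enzyme thus had different class patterns. The 3 genes for its c ring, Atp5g1, Atp5g2 and Atp5g3, stood at 84.5 and 66.0, 116 and 70.6, and 53.6 and 51.7 CPM in neutrophil-like cells. In photoreceptor-like cells they stood at 456 and 466, 459 and 472, and 399.9 and 331 CPM.

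The complex I assembly factors, which help build the complex and are not part of it, included the 3 members with the highest ratios of photoreceptor-like to neutrophil-like cells. Ndufaf5 had 265 and 164 CPM in photoreceptor-like cells, against 7.23 and 5.69 in macrophage-like and 5.76 and 1.49 in neutrophil-like cells. Ndufaf6 had 58.5 and 59.4, 5.50 and 4.75, and 3.20 and 0.902 CPM in the same order, and Ndufaf4 76.8 and 96.1, 15.5 and 13.5, and 3.36 and 3.11. The 14 photoreceptor markers themselves summed to 1044 and 99.4 CPM in neutrophil-like cells, against 41015 and 29294 in photoreceptor-like cells, and the part of free RNA in the low values of these 3 genes was not tested. Ndufaf8, the assembly factor with the highest mean level over all cells (81.9 and 56.3 CPM), was more even, at 100.1 and 99.6 CPM in photoreceptor-like, 58.2 and 60.9 in macrophage-like and 49.1 and 39.9 in neutrophil-like cells. Ndufaf7, a methyltransferase, was instead at 28.8 and 29.1 CPM in neutrophil-like cells, 7.87 and 5.71 in macrophage-like and 23.7 and 34.4 in photoreceptor-like cells.

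Within a library, 69 of 83 members in NRS and 73 in aCXCR2 were higher by at least 1.5-fold in photoreceptor-like than in neutrophil-like cells, against 61.1% and 71.0% of all genes with 10 CPM or more in either class. None was lower by as much, against 21.6% and 17.6% of all genes. The median log2 ratio of members was 1.37 and 1.58, and of all genes 1.101 and 1.72, so the members' median was above that of all genes in NRS and below it in aCXCR2. Without the shared barcodes 69 and 74 members were higher, against 60.9% and 71% of all genes, and the members' median was 1.34 and 1.58. By complex the median was 1.74 and 2.07 for complex I, 0.92 and 1.46 for complex II, 1.29 and 1.37 for complex III, 0.93 and 0.87 for complex IV, 1.36 and 1.48 for complex V, and 2.08 and 3.11 for the assembly factors.

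Between macrophage-like and neutrophil-like cells, 48 of 80 members in NRS and 64 in aCXCR2 were higher by at least 1.5-fold in the macrophage-like class, against 32.9% and 45.6% of all genes. Their median log2 ratio was 0.75 and 0.98, against -0.016 and 0.47 for all genes. Ndufaf7 was the 1 member lower by as much, with log2 ratios of -1.87 (-2.21 to -1.53) and -2.35 (-2.55 to -2.15), where 31.7% and 16.7% of all genes were. Both contrasts with neutrophil-like cells leave out the unnamed clusters that scored highest for neutrophils. With them the neutrophil-like sum was 18270 CPM in NRS and 10758 in aCXCR2, against 19208 and 19039 in macrophage-like cells. In NRS the difference between these sums therefore depends largely on leaving them out. Members were not counted with these clusters included.

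**Figure D3:**
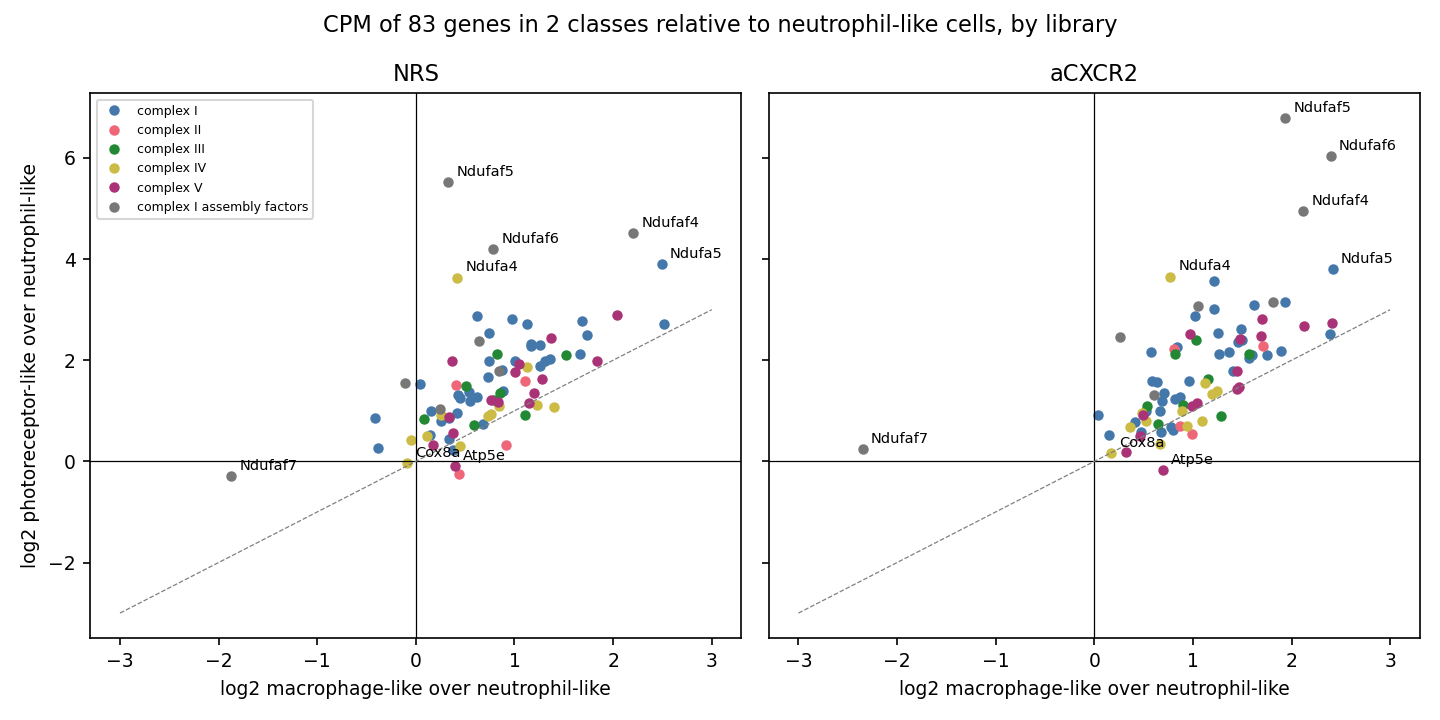
Log2 ratio of CPM in photoreceptor-like over neutrophil-like cells against that in macrophage-like over neutrophil-like cells, 1 point per gene coloured by complex, NRS left and aCXCR2 right; the dashed line marks equal ratios. Ndufaf5 lies at 5.52 and 6.79 and Ndufa4 at 3.64 and 3.65 on the vertical axis, and Ndufaf7 far to the left at -1.87 and -2.35 on the horizontal axis.

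Several subunits have tissue-specific isoforms, and the forms known from most tissues made up nearly all counts. Cox4i2, the lung and low-oxygen form, had 5.78 and 1.23 CPM over all cells beside 832 and 695 for Cox4i1. Cox6a2, a heart and muscle form, had 0.778 and 0.709 beside 321 and 263 for Cox6a1, and Cox6b2, a testis form, 2.04 and 1.56 beside 479 and 453 for Cox6b1. Ndufa4l2, a form induced at low oxygen, had 1.83 and 1.85 CPM. Of its 87 and 151 UMIs, 50.6% and 50.3% lay in the macrophage-like cluster 11, led by Cxcl3, Arg1 and Mmp12. Cox7a1, the muscle form of Cox7a2 (522 and 353 CPM over all cells), reached 19.2 and 11.6 CPM in photoreceptor-like and 10.2 and 10.2 in macrophage-like cells, and 1.60 and 1.17 in neutrophil-like cells.

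Cox8b, a heart and muscle form of Cox8a, was concentrated in very few cells. Of its 117 UMIs in NRS, 102 (87.2%) lay in the 7 cells of cluster 20, and of 146 in aCXCR2, 141 (96.6%) lay in the 14 cells of that cluster. Cluster 20 was led by Ttr, Ptgds, Trf, Clu and Rgr, and its summed member level was 29301 CPM in NRS and 38244 in aCXCR2. Cox8b had 0 UMIs in photoreceptor-like cells of either library. Cox7b2, beside 291 and 232 CPM for Cox7b, together with Cox8c and a further gene ID named Atp5o had 0 UMIs in both libraries, which allows up to 0.0631 CPM in NRS and 0.0367 in aCXCR2.

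**Figure D4:**
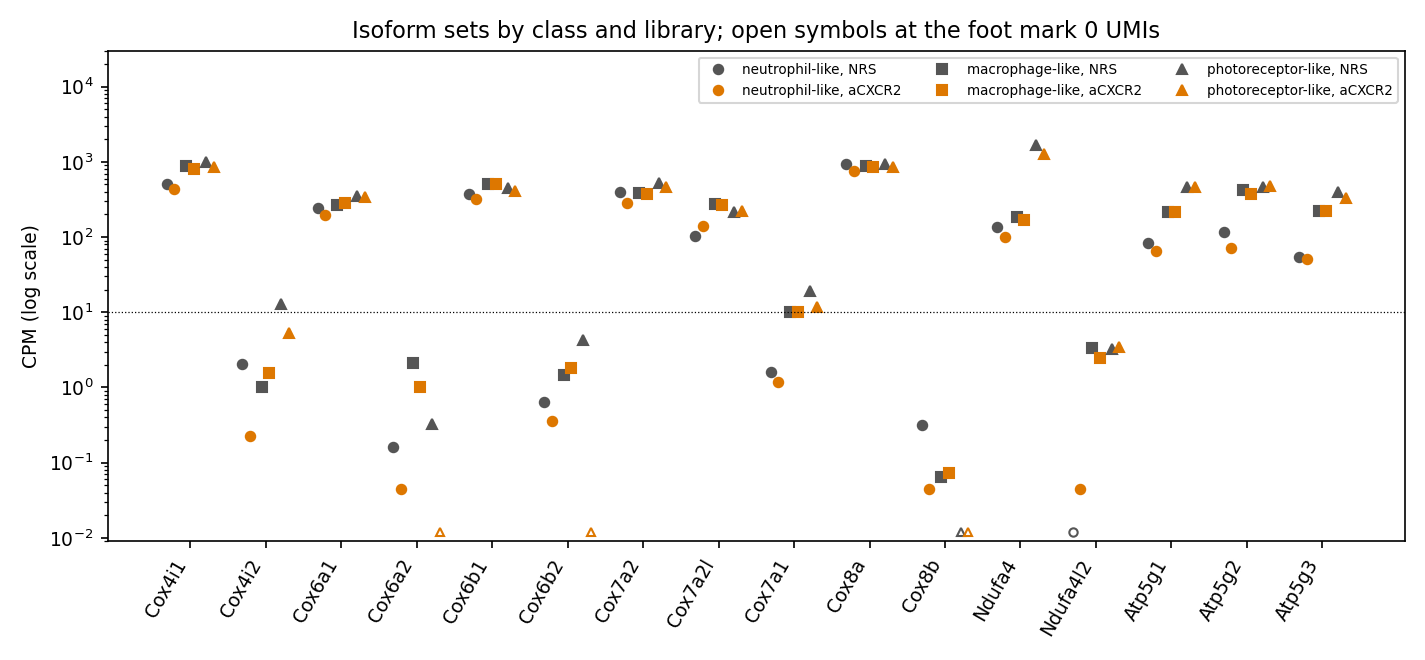
CPM (log scale) of isoform genes in neutrophil-like (circles), macrophage-like (squares) and photoreceptor-like cells (triangles), NRS grey and aCXCR2 orange; the dotted line is the floor of 10 CPM that membership needed over all cells, and open symbols at the foot mark 0 UMIs. Cox8a lies between 763 and 945 CPM in every class, and Cox7a1 reaches at most 19.2.

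Over all kept cells the 83 genes made up 2.13% of UMIs in NRS and 1.68% in aCXCR2. Their sum was 21336 CPM in NRS (21294 to 21378) and 16841 in aCXCR2 (16812 to 16869), a log2 ratio of -0.34. Lower in aCXCR2 by at least 1.5-fold were 20 of 83 members (24.1%) and higher by that much 0, against 35.7% and 8.66% of all genes that reached 10 CPM in a library. The median log2 ratio was -0.37 for members and -0.38 for all genes, so the members' median lay at that of all genes. Of the 20, 9 were complex I subunits and 7 assembly factors, and complex II held 0. Of the 7, Ndufaf1, Ndufaf5 and Ndufaf6 reached the floor in NRS alone, so the membership rule itself favoured a lower aCXCR2 level for them. Without the shared barcodes the log2 ratio of the sum was -0.30 and 14 members were lower, against 30.6% of all genes.

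Among members with 50 CPM or more, those with the lowest ratios over all cells were at their highest class level in photoreceptor-like cells. High levels there were common, with 69 of 83 members in NRS and 73 in aCXCR2 at least 1.5-fold above neutrophil-like cells. Ndufc2, from the other end of the order, had 265 CPM there in NRS, against 231 in macrophage-like and 40.2 in neutrophil-like cells. Ndufaf5, which reached the floor in NRS alone, was at 64.9 CPM in NRS and 8.76 in aCXCR2. Its log2 ratio was -2.89 (-3.01 to -2.77), and -2.48 without the shared barcodes. Ndufa4 was at 540 and 184 CPM (-1.55, -1.58 to -1.52), and at -1.28 without them. Ndufa12 followed at -1.31 (168 and 67.9 CPM), Ndufv1 at -0.98 and Ndufaf3 at -0.94 (58.0 and 30.2 CPM), and without the shared barcodes at -1.14, -0.82 and -0.88. Over the same cells the 14 photoreceptor markers summed to 10380 CPM in NRS and 915 in aCXCR2, and their part in these ratios was not tested.

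The highest ratios over all cells belonged to Cox7a2l at 202 and 227 CPM (0.17), Sdhd at 96.7 and 106 (0.13) and Sdhb at 129 and 134 (0.06). Cox7c (483 and 471 CPM), Atp5d (249 and 241) and Ndufc2 (183 and 174) came next, at -0.04, -0.04 and -0.07. Without the shared barcodes Cox7a2l was at 0.17, Sdhd at 0.08 and Sdhb at 0.04 (-0.01 to 0.08). In a sum over all cells, fewer cells of a type and less RNA per cell cannot be told apart.

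The library sum could be divided by cluster. With the aCXCR2 level in each cluster but the NRS share of UMIs per cluster, the sum was 4.66% below that of NRS. With NRS levels and aCXCR2 shares it was 16.4% below, and the measured aCXCR2 sum was 21.1% below.

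Within neutrophil-like cells the sum was lower in aCXCR2 when scaled by total UMIs, with a log2 ratio of -0.26 (-0.27 to -0.25). Of 78 members that reached 10 CPM in a library, 3 (3.85%) were lower by at least 1.5-fold and 0 higher, against 27.9% and 3.74% of all genes. The median log2 ratio was -0.30 for members and -0.37 for all genes. The 3 were Atp5g2, a c ring gene, at 116 and 70.6 CPM (-0.72, -0.85 to -0.59), Ndufab1, the mitochondrial acyl carrier protein, at 58.6 and 35.9 CPM (-0.71, -0.89 to -0.52), and Ndufs1, the large iron-sulphur subunit, at 33.4 and 21.7 CPM (-0.62, -0.86 to -0.38). Ndufa12 (52.5 and 35.1 CPM), Sdha and Ndufa6 (178 and 122 CPM) were also low among members with 50 CPM or more, at -0.58, -0.55 and -0.55.

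At the other end, Cox7a2l had 103 CPM in NRS and 138 in aCXCR2, a log2 ratio of 0.42 (0.30 to 0.55). Ndufa8, an accessory complex I subunit, had 78.2 and 95.8 CPM (0.29, 0.15 to 0.44), Ndufb11 71.2 and 82.0 (0.20, 0.05 to 0.36) and Ndufs4 60.8 and 63.2 (0.06, -0.11 to 0.22). The intervals of Cox7a2l, Ndufa8 and Ndufb11 lay above 0, and that of Ndufs4 did not. Cox7c (251 and 260 CPM) and Uqcrh (226 and 220) followed at 0.05 and -0.04. In these cells the 14 photoreceptor markers summed to 1044 CPM in NRS, with 9 of them at 10 CPM or more, and to 99.4 in aCXCR2, with 3, and their part in the ratios was not tested.

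The direction in neutrophil-like cells depended on the scaling. S100a8 and S100a9, the calprotectin genes, made up 6.73% of UMIs in NRS and 16.1% in aCXCR2 neutrophil-like cells. TMM factors, which centre on the bulk of genes, moved every log2 ratio by 0.47 and turned that of the sum to 0.21, and median-of-ratios factors turned it to 0.14. Under TMM the median log2 ratio was 0.18 for members and 0.098 for all genes. Scaled to UMIs outside the 50 most abundant genes the ratio of the sum was -0.0037, and as member UMIs per cell, 57.5 in NRS and 93.3 in aCXCR2, it was 0.70. Over all cells the TMM shift was 0.53 and the log2 ratio of the sum became 0.19. A single factor moves all genes alike, so among members with 50 CPM or more Cox7a2l and Atp5g2 stay at the 2 ends of the order under any of them.

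**Figure D5:**
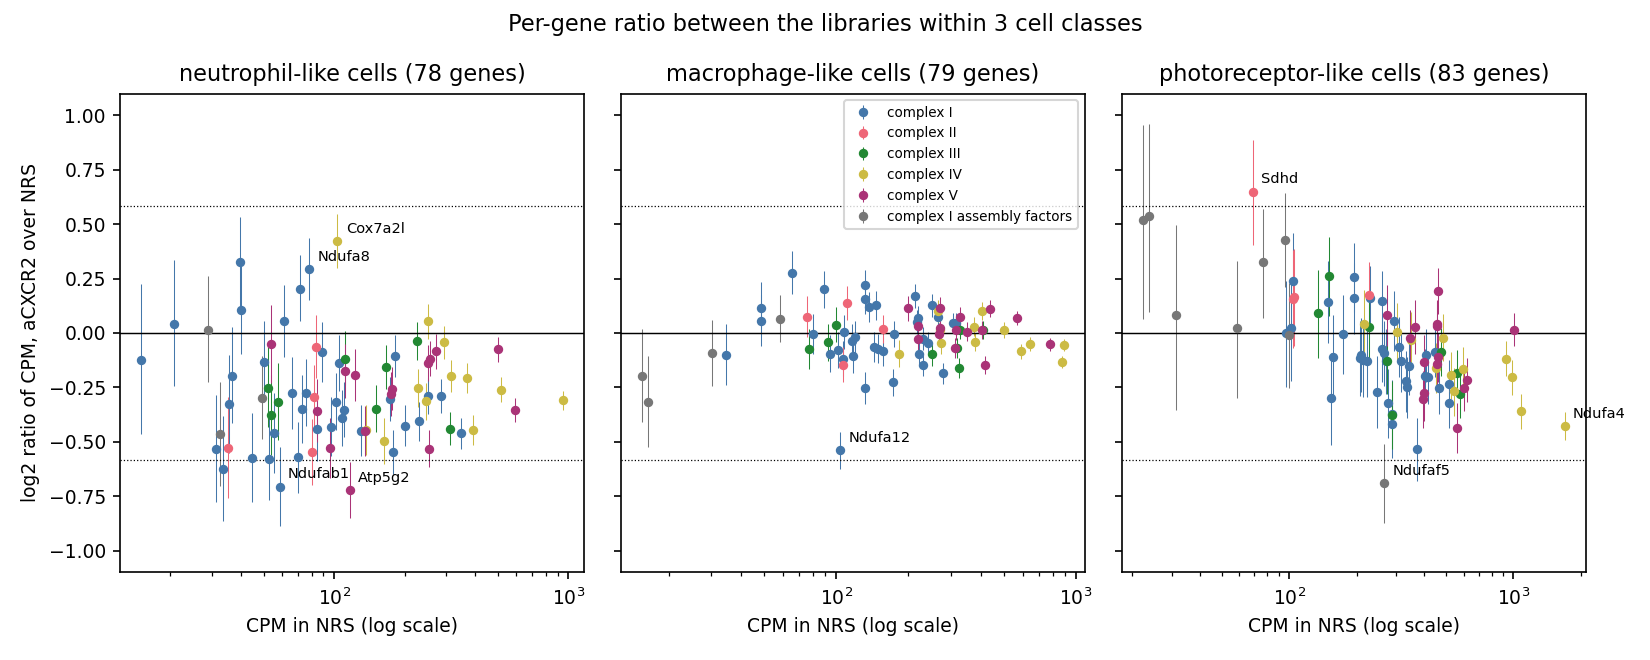
Log2 ratio of CPM, aCXCR2 over NRS, against the NRS level (log scale) for members that reached 10 CPM in a library, in 3 cell classes; vertical bars are 95% counting intervals, dotted lines mark 1.5-fold and colours the complexes. In neutrophil-like cells 69 of 78 members lie below 0 under scaling by total UMIs, a direction that TMM scaling turns for the sum, and in macrophage-like cells 41 lie below and 38 above.

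The neutrophil-like class was not built from the same clusters in both libraries. Cluster 2, led by Prok2, Gadd45b and Ccl3, was 38.2% of the NRS class but 13.5% of the aCXCR2 class, cluster 12 27.8% and 2.32%, cluster 3 7.65% and 28.2%, and cluster 14, led by Retnlg, 0.445% and 15.7%. Within clusters the difference was uneven. In cluster 8, led by Ifitm1, S100a9, S100a8 and the interferon-induced Gbp2 and Cxcl10, the sum was 16507 CPM in NRS and 10053 in aCXCR2, and 60 of 80 members were lower by at least 1.5-fold, against 53.5% of all genes. In cluster 7 the sum was 9579 and 6670 CPM with 36 of 78 lower, against 42.3%. In cluster 12 it was 11170 and 9402 CPM with 17 of 78 lower, against 30.7%, and in cluster 2 it was 12677 and 10904 CPM with 9 of 79 lower, against 19.2%. In cluster 3, led by Wfdc21, Pglyrp1 and Lcn2, it was 14931 and 14938 CPM with 1 of 78 lower, against 17.1%. The members' share of lower genes was thus above that of all genes in cluster 8, close to it in cluster 7 and below it in clusters 2, 3 and 12.

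The clusters given by number differed as much. In cluster 0 the members were nearly level, with 2 of 81 lower, against 15.4% of all genes, and in cluster 6 11 of 80 were lower, against 19.6%. In cluster 4 the sum was 25070 CPM in NRS and 16591 in aCXCR2, and 52 of 82 members were lower, against 56.7%. Adding clusters 0 and 6 to the neutrophil-like class brought it to 3012 and 2572 cells and 18270 and 10758 CPM, a log2 ratio of -0.76. Of 80 members 67 were then lower by at least 1.5-fold, against 50.9% of all genes, with medians of -0.82 and -0.60. How far neutrophil-like cells differ between the libraries therefore depends on whether these clusters are counted in.

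Macrophage-like cells had nearly equal sums, with a log2 ratio of -0.013 (-0.019 to -0.0069). Of 79 members 0 were apart by 1.5-fold in either direction, against 5.93% of all genes lower and 7.95% higher. The median log2 ratio was -0.0055 for members and 0.08 for all genes. The lowest was Ndufa12, at 103 and 71.2 CPM (-0.54, -0.62 to -0.45), and the highest Ndufs8, an iron-sulphur subunit, at 65.4 and 79.2 CPM (0.28, 0.18 to 0.38). NRS macrophage-like cells came mostly from cluster 13 (268 cells), led by Spp1 and Gpnmb, and aCXCR2 ones from clusters 1 and 10 (752 and 572 cells). Within single clusters the log2 ratio of the sum was 0.04 in cluster 1, 0.02 in cluster 13 and -0.21 in cluster 11, where 0 of 79 members were lower by 1.5-fold, against 2.53% of all genes.

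Photoreceptor-like cells had a log2 ratio of -0.14 (-0.16 to -0.13), and 1 of 83 members was lower by at least 1.5-fold and 1 higher, against 4.48% and 14.6% of all genes. These were Ndufaf5 (-0.69, -0.87 to -0.51), a member only through its level in NRS, and Sdhd (0.65, 0.41 to 0.89). Without the shared barcodes Ndufaf5 was at -0.64 and Sdhd at 0.46 (0.20 to 0.70), below 1.5-fold. The class was 563 cells of cluster 5, 73 of cluster 15 and 26 of cluster 19 in NRS, and 128, 80 and 3 in aCXCR2. Ndufa4 was at -0.43 (-0.49 to -0.36), and at -0.37 without the shared barcodes. All 4 complex II genes were above 0, where the median of all genes was itself 0.14. Without the shared barcodes Sdha was at 0.20 (0.04 to 0.35) and Sdhc at 0.26 (0.03 to 0.49). Sdhb was then at 0.11 (-0.12 to 0.34), an interval that spans 0. The 12 neutrophil markers summed to 2760 CPM in NRS and 10162 in aCXCR2 photoreceptor-like cells, and their part in these ratios was not tested.

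The sign in photoreceptor-like cells depended on the cluster and on the mitochondrial limit. In the rod cluster 5 the sum was 29595 and 32437 CPM (0.13, 0.11 to 0.15; 0.14 without the shared barcodes), and in cluster 15, led by Dusp8, Atf4 and Guca1a, 21419 and 19665 CPM (-0.12, -0.16 to -0.09). With a limit of 20% in place of 10%, the class sums were 30447 and 32127 CPM and the log2 ratio 0.08. The mitochondrially encoded subunits were at 65695 and 43302 CPM in photoreceptor-like cells, a log2 ratio of -0.60, and of -0.51 without the shared barcodes.

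The rest of the pathway was read from lists of genes. In neutrophil-like cells 27.9% of all genes were lower in aCXCR2 by at least 1.5-fold and 3.74% higher, with a median log2 ratio of -0.37. In neutrophil-like cells, 4 of 10 electron carrier genes were lower in aCXCR2 by at least 1.5-fold and 0 higher, with a median of -0.50. They include Cycs, cytochrome c, at 132 and 61.5 CPM (-1.103, -1.23 to -0.98). Of 12 mitochondrially encoded subunits 2 were lower, and mt-Co1 was above 0, at 3010 and 4140 CPM (0.46). Of 19 assembly factors outside the rule 3 were lower, among them the copper chaperone Cox17 at 482 and 301 CPM (-0.68). Of 10 citric acid cycle genes 1 was lower, and of 65 mitochondrial ribosomal protein genes 9 were lower and 1 higher.

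In photoreceptor-like cells the medians of several lists lay above 0, as did that of all genes (0.14), of which 14.6% were higher by at least 1.5-fold and 4.48% lower. Of 17 electron carrier genes 9 were higher in aCXCR2 by at least 1.5-fold and 0 lower, with a median of 0.60 and Etfb, a subunit of the electron transfer flavoprotein, at 71.1 and 115 CPM (0.69). Of 77 mitochondrial ribosomal protein genes 15 were higher and 2 lower (median 0.27), and of 12 regulators 3 were higher (median 0.28), while 7 of 13 mitochondrially encoded subunits were lower. Without the shared barcodes 8 electron carrier, 10 mitochondrial ribosomal and 3 regulator genes were higher and 4 mitochondrially encoded subunits lower, against 13.2% and 4.67% of all genes. In macrophage-like cells 0 of the 13 citric acid cycle, 75 mitochondrial ribosomal and 28 outside assembly genes were apart by 1.5-fold, against 5.93% of all genes lower and 7.95% higher. Ucp2, a carrier of the inner membrane, was at 610 and 665 CPM there, 164 and 178 in neutrophil-like and 12.9 and 14.0 in photoreceptor-like cells.

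Some members cannot be told from related sequences by 3' reads. In GENCODE M21 (GRCm38), where all 83 IDs were found, 10 members shared at least 1 window of 98 bases, the read length, near the 3' end with another gene. Atp5l shared 70.0% of its windows, Ndufs3 43.2%, Cox7c 40.9%, Ndufs5 38.6% and Atp5h 33.0%, and Uqcrb, Atp5o, Cox6c, Atp5g2 and Atp5f1 between 3.63% and 17.8%, and the levels of these 10 are uncertain. In addition 26 members have an overlapping gene on the opposite strand and 5 a gene on the same strand at the 3' end.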

How the data were processed

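Droplet 3' libraries of Ly6G-selected cells were measured, 1 per group. The authors deposited UMI counts per gene and barcode, not normalized; Cell Ranger and Seurat are named per the submitters' processing notes, and the matrix header gives software version 3.0.0. The notes name GRCh38 while the gene IDs are mouse, and no source used here gives the mouse build.

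Kept barcodes had 500 or more UMIs, 200 or more genes and no more than 10% of UMIs from mitochondrial genes; 1521 NRS and 524 aCXCR2 barcodes were over that last limit. The doublet caller marked 0 and 4 cells and has not worked, so doublets were kept. Clustering used scanpy 1.11.5 with 2000 variable genes, of which 5 were members, 30 principal components, 15 neighbours and resolution 1. A cluster was named from marker lists by a score rule set after the data were seen; named classes may differ from those of the study. Counts were summed per library and class, scaled to CPM, and compared as log2 ratios with exact Poisson and exact conditional 95% intervals (scipy 1.17.1), which were tested on simulated data. A gene was counted as lower or higher from 1.5-fold. TMM factors came from edgeR 4.0.16 (R 4.3.3), with no test. Shallower cells left out of thinning numbered 31 and 26 neutrophil-like, 13 and 6 macrophage-like, and 20 and 7 photoreceptor-like.

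The members and lists were chosen with earlier results of these data known. Genes named are the 3 highest in each complex, the 6 lowest and 6 highest ratios with 50 CPM or more in all and in neutrophil-like cells, the isoform sets, the 3 with the widest class range in each library, those next to the floor, and up to 3 of the highest in each other list; further genes (such as Atp5b, Ndufs1, Ndufs8 and Ndufaf7) were chosen after their values were seen, and some genes the rule names are not reported here. Alternatives covered scaling, cell filters, clustering, class membership and barcodes shared by the libraries.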

Additional observations from a re-analysis of the deposited data

Results flagged for a closer look

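In 10 cases a member's aCXCR2 over NRS ratio was above 0 in 1 class and below 0 in another, with counting intervals on opposite sides and at least 1.5-fold between them. The differences were not tested, since each group is 1 library, and the neutrophil-like values depend on the scaling. The share of all genes that meet the same rule is not given here. The median log2 ratio of all genes was itself -0.37 in neutrophil-like, 0.08 in macrophage-like and 0.14 in photoreceptor-like cells. TMM scaling moves every log2 ratio by 0.47 in neutrophil-like, by -0.16 in photoreceptor-like and by -0.0044 in macrophage-like cells. With these shifts the 2 sides of every case are less than 1.5-fold apart, so the flagged cases depend on the scaling.

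Between photoreceptor-like and neutrophil-like cells there were 7, given as log2 ratios in that order. Sdhd, a complex II anchor, was at 0.65 and -0.29 (0.46 in photoreceptor-like cells without the barcodes shared by the libraries), and Sdha, its flavoprotein, at 0.18 and -0.55. The complex I flavin subunit Ndufv1 was at 0.16 and -0.53 and its neighbour Ndufv2 at 0.26 and -0.46. Ndufaf3, an assembly factor, was at 0.43 and -0.47, Uqcrc2, a complex III core protein, at 0.26 and -0.38, and Atp5a1, the alpha subunit of complex V, at 0.19 and -0.45. Between macrophage-like and neutrophil-like cells there were 3. Atp5b was at 0.07 and -0.53, Atp5o, a stalk subunit, at 0.11 and -0.53, and Ndufs8 at 0.28 and -0.57.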

How the results depend on the processing

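No paired analysis was possible because each group has 1 library. Values are log2 ratios of the summed members, then counts of members lower and higher by 1.5-fold. For most alternatives the share of all genes is not given, so these counts do not show whether members differ from other genes. As UMIs per cell, for example, the median log2 ratio of all genes was 0.63 over all cells and 0.59 in neutrophil-like cells. All cells (-0.34, 20, 0): TMM 0.19, 5, 3; median of ratios 0.18, 5, 2; UMIs per cell 0.67, 2, 51; outside the 50 most abundant genes -0.20 with 11 lower; 20% mitochondrial limit -0.41; mean over cells -0.42; stricter filter -0.26; without shared barcodes (chosen after seeing the data) -0.30. Neutrophil-like (-0.26, 3, 0): TMM 0.21, 0, 4; median of ratios 0.14, 0, 4; UMIs per cell 0.70, 0, 52; outside the 50 genes -0.0037, 0, 2; 20% limit -0.29 with 7 lower; resolution 0.5 -0.80 with 65; mean over cells -0.21; stricter filter 5 lower; no floor 11; clustered without members, mitochondrial and ribosomal genes -0.28 with 6; equal weight per cluster -0.32 with 6; without cluster 12, the one differing most in share, -0.30 with 13; with clusters 0 and 6 -0.76 with 67.

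Macrophage-like (-0.013, 0, 0): outside the 50 genes -0.11 with 1 lower; 20% limit -0.0060. Photoreceptor-like (-0.14, 1, 1): TMM -0.30, 3, 0; outside the 50 genes -0.19; 20% limit 0.077, 0, 0; resolution 0.5 -0.26, 2, 0; without shared barcodes -0.12 with 0 higher. The cause of these shifts was not tested. Class sums in CPM (NRS, aCXCR2) as mean over cells were 11702 and 10100 neutrophil-like, 19983 and 18980 macrophage-like, 27060 and 27185 photoreceptor-like; outside the 50 genes 20454 and 20348, 32733 and 30643, 38764 and 34142; thinned 11759 and 10224, 19490 and 18761, 27757 and 27074; at the 20% limit 10104 for aCXCR2 neutrophil-like, 19039 and 18960, 30447 and 32127. The order of the classes was the same in each.

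Medians also turned sign: all cells 0.16 (TMM), 0.15 (median of ratios) and 0.64 (UMIs per cell); neutrophil-like 0.18, 0.10 and 0.67; at the 20% limit macrophage-like 0.0016 and photoreceptor-like 0.11. As UMIs per cell, Atp5g1 0.42, Ndufab1 0.24, Ndufaf1 0.42, Ndufaf3 0.068, Ndufb11 0.40 and Ndufv1 0.029 turned in all cells, and Atp5g2 0.24 and Ndufab1 0.26 in neutrophil-like cells. Lower members numbered 19 (all cells) and 3 (neutrophil-like) without the highest doublet scores, 15 and 2 with a floor of 50 CPM, and 4 neutrophil-like at resolution 2. With 1 library per group, differences between animals cannot be told from differences between treatments.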

Other observations

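Barcodes left out for more than 10% mitochondrial UMIs also held the member genes. The 1521 such NRS barcodes had 24166 CPM of the 83 genes, and 1577 CPM of the neutrophil gene S100a8. The 524 aCXCR2 barcodes had 13489 CPM of the 83 genes, and 17262 CPM of S100a8.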
